A study of Mus musculus with 441 samples.

Results

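The cells described here are v6.5 mouse embryonic stem cells (mESCs), a wild-type line, grown in serum with leukaemia inhibitory factor (LIF). They are 183 of the 415 single cells measured in the study, 90 on plate 1 and 93 on plate 2, and were chosen by their labels alone. The other mESC plates used for comparison held 94 v6.5 cells in 2i+LIF (inhibitors that block MEK and GSK3) and 84 Dgcr8 knockout cells in serum+LIF. Each of those was 1 plate, and the labels do not say whether the 2 serum plates came from separate cultures. A pattern is reported for serum cells only with its value on each plate.

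Embryonic stem cells in serum self-renew under LIF, which acts through Stat3, and under bone morphogenetic proteins (BMPs) in serum, whose best known targets are the Id genes. They hold a network of transcription factors around Pou5f1, Sox2 and Nanog. Serum cultures are known for mixed levels of some members of that network, such as Nanog, Zfp42 and Dppa3, while the 2i inhibitors are used to hold cells in a more even, naive state.

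RNA was measured by SMART-Seq on microfluidic C1 chips whose chambers were inspected optically, per the labels, and no caller of doublets was run. The table gives TPM, a length-normalised share of transcripts that keeps no trace of read depth, so the number of genes at TPM 1 or more stands in for it. It ran from 6345 to 7749 on plate 1, with a median of 6930.5, and from 6177 to 7405 on plate 2, with a median of 6806. The medians were 8899 on the 2i plate and 8324 on the knockout plate. The highest rank correlation between 2 cells of a plate was 0.827. Dgcr8 itself, summed over the whole gene, had medians of 61.6 and 21.5 TPM on the serum plates and 9.89 TPM on the knockout plate. It was detected in all 183 serum cells and in 79 of 84 knockout cells, and a sum over the gene does not show which exons were read.

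One property of the deposited table limits what can be seen in rare cells. Of 14430 distinct genes, 355 were above 0 in 10 to 19 of the 183 serum cells, but 9 in 1 to 9 cells, and 3021 were listed at 0 in all of them. A gene held by fewer than 10 serum cells (5.46%) is thus nearly always listed at 0, and no source used here names the step behind this. The same break stood at 5 cells on the 2i plate, with 11 genes below it and 535 in 5 to 9 cells, and on the knockout plate, with 13 and 883.

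The marker genes of the culture were present. Nanog, the homeobox factor of the naive network, was detected in all 183 cells, with a lowest, median and highest level of 41.3, 771 and 2283 TPM on plate 1 and 182, 1599 and 3919 TPM on plate 2. Lin28a, which blocks maturation of let-7 microRNAs, was also detected in all cells. Pou5f1 (Oct4) was found in 90 of 90 and 92 of 93 cells, and Dnmt3l, a cofactor of the DNA methyltransferases, in 87 of 90 and 92 of 93. Rhox6, a homeobox gene of the X-linked reproductive homeobox cluster, was found in 47 of 90 and 58 of 93. Of the defining markers of other lineages, those of primitive endoderm (Gata4, Gata6, Sox17, Sox7, Pdgfra, Dab2, Foxa2), mesoderm (T, Mixl1, Mesp1, Eomes) and fibroblasts (Col1a1, Col1a2, Col3a1, Thy1, Postn, Dcn) were at 0 in every serum cell, within the limit just given. The exceptions among trophoblast and neural markers were Elf5, detected in 88 and 90 cells, Gata3, in 16 and 19 cells, and Pax6, in 7 and 19 cells.

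A small share of genes had a cell-to-cell spread well above that of genes of like level. The measure is relative, so it does not show where the total spread lies. For each gene the standard deviation (SD) over cells of log2(TPM + 1) was set against the running median over the genes nearest in mean level on the same plate, and the difference is called the excess SD. Among 10272 genes detected in at least 10% of the cells of each plate, 268 (2.61%) had an excess SD of 0.5 or more on both plates. Alone, plate 1 had 396 such genes (3.86%) and plate 2 had 370 (3.6%), so that 67.7% of the first list and 72.4% of the second list were shared. Across genes, which are not independent replicates, the excess SDs of the plates had a Spearman correlation of 0.84. Just inside the limit lay Morc4 (0.50 and 0.73), Crabp2 (0.50 and 0.63) and Mup6 (0.50 and 0.56), and just outside it Elf5 (0.52 and 0.50). With a pseudocount of 10 TPM in place of 1, 72 genes passed.

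**Figure D1:**
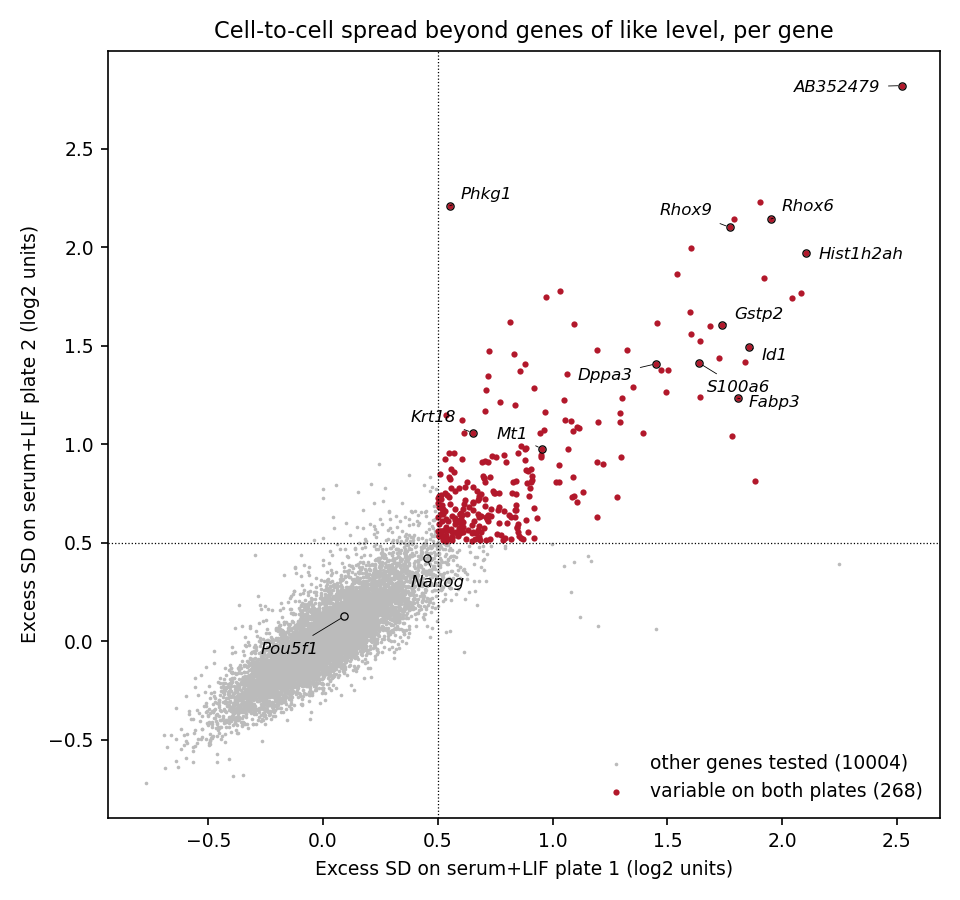
Excess SD of each of 10272 genes on serum+LIF plate 1 (horizontal axis) and plate 2 (vertical axis), in log2 units, with the 268 genes at 0.5 or more on both in red. Rhox6, Rhox9, Id1, Dppa3 and Gstp2 lie far from the main cloud on both plates, and Pou5f1 lies inside it.

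The 20 genes with the highest excess SD, ranked by the plate where it was smaller, fell into a few kinds. They held 7 replication-dependent histone genes (Hist1h2ah, Hist1h2an, Hist1h2af, Hist1h2ai, Hist2h2ac, Hist1h2ag and Hist1h2ak), the homeobox genes Rhox6 and Rhox9, the BMP target Id1, the glutathione transferase Gstp2 and the small RNA genes Rn4.5s and Mir682. The other 7 carry accession-type names that the files do not annotate. A pattern close to on or off, with 20% to 80% of cells holding the gene at a median of 20 TPM or more among them, was met on both plates by 13 genes (0.0901% of 14430), among them Hist1h2ah, Hist1h2an, Gstp2 and Spink3.

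Among genes with a standard symbol, Rhox6 and Rhox9 were among the most uneven, at ranks 3 and 7 of all tested genes by the smaller plate. Rhox6 had a lowest, median and highest level of 0, 1.85 and 1466 TPM on plate 1 and of 0, 4.66 and 3017 TPM on plate 2. Rhox9 was detected in 47.8% and 50.5% of cells and reached 1843 and 3726 TPM. Most cells held little or none, and a few held more than 1000 TPM, on both plates. Excess SDs were 1.95 and 2.14 for Rhox6 and 1.77 and 2.10 for Rhox9. The third Rhox gene tested, Rhox13, had an excess SD of 0.06 and 0.15 and reached at most 19.6 TPM.

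Over the cells of a plate, Rhox6 and Rhox9 rose and fell together, with a Spearman rho of 0.76 on plate 1 (90 cells) and 0.67 on plate 2 (93 cells). They are near copies, so reads may be split between them. Other genes that tracked Rhox6 were S100a6, a calcium-binding protein (0.48 and 0.48), Lgals1, which encodes galectin-1 (0.42 and 0.46), Cox4i1, a subunit of cytochrome oxidase (0.56 and 0.49), and Cd63, a tetraspanin (0.42 and 0.43). Cells of a plate share the chip and differ in the number of genes detected. Rhox6 itself had a rho of 0.32 and 0.31 with that number, and the partial rho of Rhox6 and Rhox9 given it was 0.75 and 0.62.

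Dppa3, a maternal factor that shields DNA methylation in the early embryo, was the most uneven member of the pluripotency list. It was detected in 94.4% and 96.8% of cells and ran from 0 through a median of 56.4 to 571 TPM on plate 1 and from 0 through 45.3 to 900 TPM on plate 2, with excess SDs of 1.45 and 1.41. Its closest partner over cells, with partners here and below ranked by the plate with the weaker correlation, was Ifitm1, an interferon-induced membrane protein (rho 0.59 and 0.57), followed by Gstm1, a glutathione transferase (0.48 and 0.54), and Gpx4, a peroxidase of membrane lipids (0.46 and 0.57). Dppa3 and Rhox6 had a rho of 0.49 and 0.38. Dppa3 showed little relation to Id1 (-0.11 and 0.10) or Krt18 (0.01 and 0.03).

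**Figure D2:**
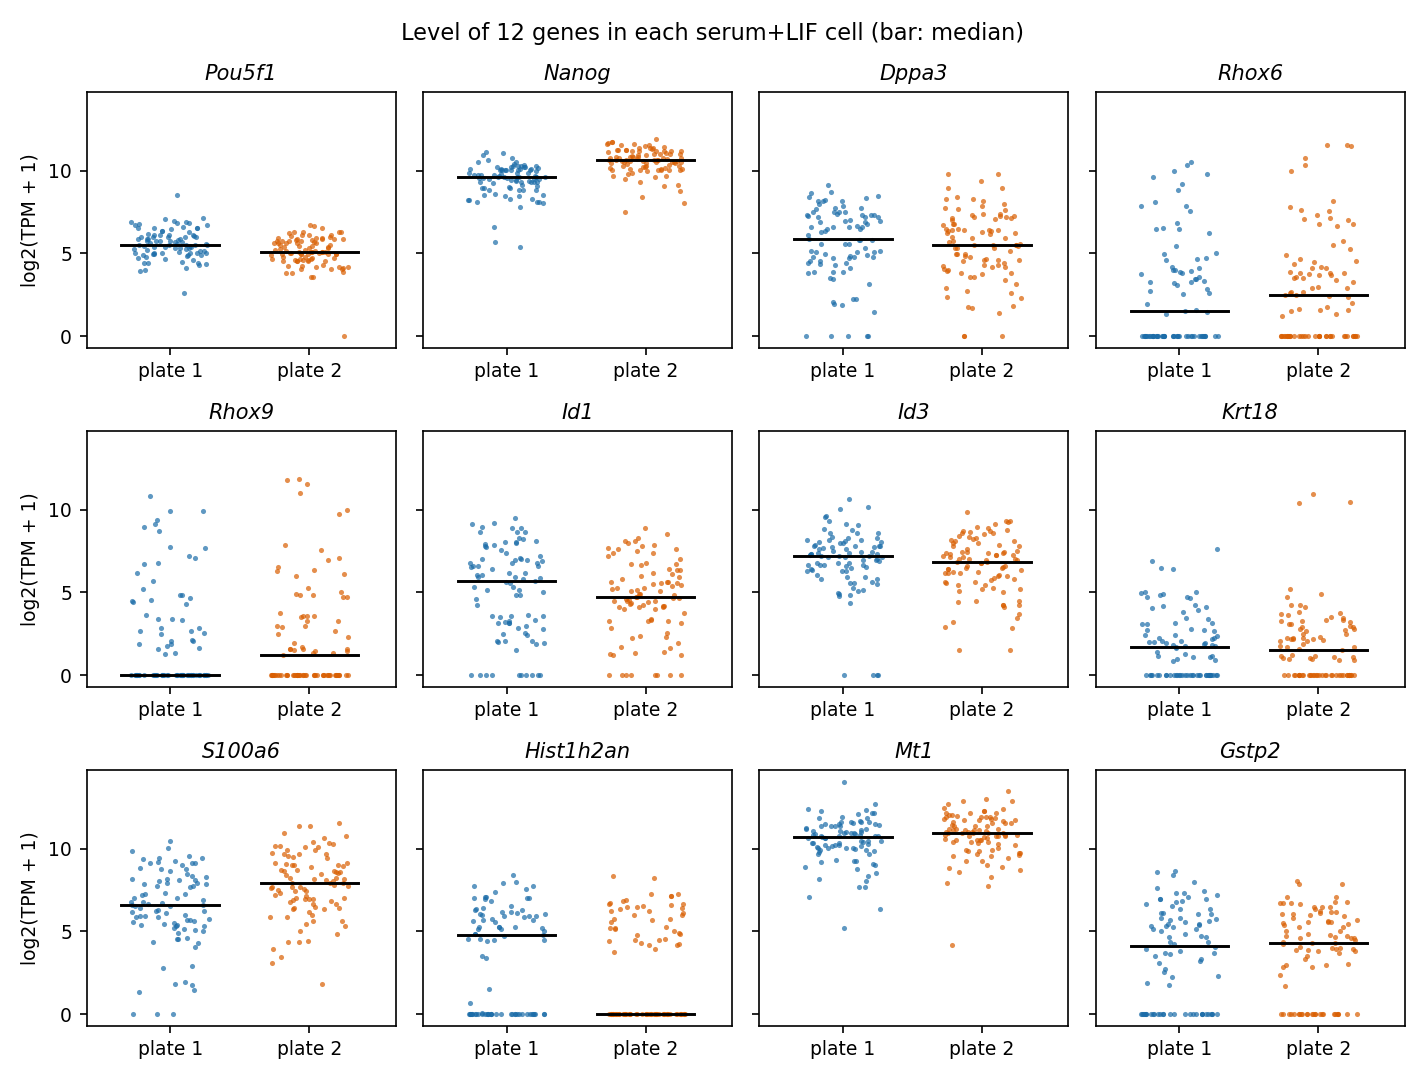
Level of 12 genes, as log2(TPM + 1), in each of the 90 cells of plate 1 and 93 cells of plate 2, 1 point a cell with the median as a bar. Nanog lies above 0 in every cell and Pou5f1 in nearly every cell. Rhox6, Rhox9, Gstp2 and Hist1h2an include many cells at 0, and 3 cells of plate 2 stand above the rest for Krt18.

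A few cells carried trophoblast genes. By the rule of 3 or more members of the trophoblast list at 10 TPM, counting members seen in at most 20% of serum cells, there was 1 such cell of 90 on plate 1 (1.11%, exact 95% binomial interval 0.0281% to 6.04%) and 2 of 93 on plate 2 (2.15%, 0.262% to 7.55%). The intervals cover counting error only. None of 94 cells in 2i (exact interval up to 3.85%) and none of 84 knockout cells (up to 4.30%) met the rule, but Plac1 is listed at 0 on both of those plates, Gata2 on the 2i plate and Gata3 on the knockout plate, so these intervals set no limit on rare cells either. With a limit of 50 TPM in place of 10 TPM, no serum cell met it. No serum cell met the rule for the primitive endoderm, mesoderm, neural, fibroblast or 2-cell-like lists either, but a gene in fewer than 10 serum cells is nearly always listed at 0, so this count does not bound the share of rare cells of those kinds.

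The 3 cells found by the rule, and a further cell of plate 2 added after its values were seen because its Krt18 exceeded 1000 TPM, shared a set of genes. The 3 cells met the rule through Plac1, Krt7 and Gata2, so high levels of these genes in them were fixed by the choice. The same holds for Krt18 in the added cell. Plac1, an X-linked placental gene, stood at 368 TPM in the plate 1 cell and at 6266, 2114 and 779 TPM in the 3 plate 2 cells, against a median of 0 on both plates. The simple-epithelial keratin gene Krt8 stood at 259 TPM in the plate 1 cell and at 1577, 1137 and 825 TPM in the plate 2 cells, against medians of 1.46 and 0 TPM. Its partner Krt18 stood at 88.6 TPM and at 1425, 1327 and 1982 TPM, against medians of 2.30 and 1.88 TPM. On the knockout plate Krt18 had a median of 80.05 TPM and reached 481 TPM, so 88.6 TPM was near that median. On the 2i plate its median was 0 and its highest level 33.8 TPM. These plate 2 cells held the 3 highest levels of Krt8, Krt18, Krt7, Krt19 and Plac1 on their plate, and the plate 1 cell held the highest level of Plac1, Gata2, Lgals1 and Phlda2 on its own.

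Rhox6 was high in the same cells, at 458 TPM in the plate 1 cell and at 2836, 1745 and 3017 TPM in the plate 2 cells. Lgals1 stood at 708 TPM in the plate 1 cell and at 5214, 3528 and 2183 TPM in the plate 2 cells, against medians of 45.1 and 51.3 TPM. One of the plate 2 cells had Pou5f1, Sox2, Dnmt3l and Dppa3 listed at 0, with Nanog at 262 TPM, the second lowest of its plate. The other cells kept Pou5f1, on plate 2 at 33.9 and 36.1 TPM, close to the median of 33.1 TPM of that plate. Cdx2 and Eomes, early regulators of trophoblast, were listed at 0 in all of them. Among these cells were those with the most genes detected on their plates (7749 and 7405), and whether any chamber held more than 1 cell was not tested.

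These cells carried much of the spread of the keratins on plate 2. Without them the excess SD of Krt8 was 0.64 on plate 1 and 0.12 on plate 2, against 0.72 and 0.91 with them. That of Krt18 was 0.62 and 0.40, against 0.65 and 1.06, so neither gene passed on both plates. On plate 2 the fall for Krt18 follows from the choice, since cells above 1000 TPM of Krt18 were left out. Rhox6 kept 1.85 and 1.75, Rhox9 1.68 and 1.65, Lgals1 0.83 and 0.60, and Phlda2, an imprinted gene that restrains placental growth, 0.61 and 0.78. The rho between Krt8 and Krt18 was 0.50 and 0.44 with these cells, and 0.48 and 0.38 without them. Without them 244 genes were variable on both plates.

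The Id genes, which encode dominant-negative partners of helix-loop-helix factors and respond to BMP, were uneven on both plates. Id1 ran from 0 through a median of 49.7 to 729 TPM on plate 1 and from 0 through 24.8 to 478 TPM on plate 2, with excess SDs of 1.85 and 1.49. Id2 had excess SDs of 1.501 and 1.38 around medians of 51.2 and 52.4 TPM. Id3, the most abundant of them, had medians of 145 and 116 TPM and excess SDs of 1.29 and 1.11. Id1 had a rho of 0.40 and 0.40 with Id3 and of 0.38 and 0.38 with Id2, and Id2 had 0.27 and 0.38 with Id3.

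The closest partner of Id1 was Skil, which encodes a corepressor of SMAD proteins and is itself a TGF-beta family target (rho 0.41 and 0.48). Its lowest correlation was with Top2a, the topoisomerase of proliferating cells (-0.36 and -0.41). Bmp4, the ligand, was also variable (0.92 and 0.53) but showed little relation to Id1 (-0.04 and -0.09). Of the BMP and Nodal list, 5 of 11 tested genes (beside 2.61% of all genes) were variable, namely Id1, Id2, Id3, Bmp4 and Tdgf1, the Nodal coreceptor. The median excess SD of the list was 0.45 and 0.23. Smad7 and Bambi, feedback inhibitors, had excess SDs below 0 on both plates. All gene lists were chosen with earlier results of these data known, so shares of list members here and below are descriptive.

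The pluripotency network held both even and uneven members. Of 29 genes of the core and naive list, 6 (20.7%, beside 2.61% of all tested genes) were variable on both plates, namely Dppa3, Tdgf1, Nr0b1, Zfp42, Tcl1 and Fbxo15, and the list had a median excess SD of 0.09 and 0.07. Pou5f1 had excess SDs of 0.09 and 0.13, Sox2 of -0.20 and -0.25, and Esrrb of -0.11 and -0.18. Zfp42 (Rex1), used as a reporter of the naive state, had 0.56 and 0.53 around medians of 135 and 124 TPM. Nanog, at 0.45 and 0.42, fell just short of the limit on both plates. The table gives Nanog the same values as the name Nanogpd, so reads of a pseudogene copy cannot be told apart from it here.

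Nanog was only weakly related to the other factors. Its rho was -0.23 and -0.17 with Pou5f1, -0.05 and 0.13 with Esrrb, -0.09 and 0.07 with Zfp42, and -0.21 and -0.42 with Rhox6. The genes that tracked Nanog best were Chpt1, a choline phosphotransferase (0.47 and 0.78), Ogdh, a subunit of the oxoglutarate dehydrogenase (0.47 and 0.59), AK133650 (0.46 and 0.75), Pbld1 (0.45 and 0.63) and Lifr, the LIF receptor (0.45 and 0.59). Nanog also fell with the number of genes detected (rho -0.27 and -0.42). The partial rho given that number was 0.42 and 0.72 for Chpt1 and 0.38 and 0.46 for Lifr. After each cell was centred on 1894 genes detected in every serum cell, the negative correlation of Nanog with Snrpg, a splicing protein, shrank to -0.10 and -0.17, against -0.48 and -0.56 before.

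Genes of the primed state varied in part. Of 12 tested genes of the primed epiblast list, 2 were variable, beside 2.61% of all genes: Car4, a carbonic anhydrase (0.67 and 0.56), and Krt18, whose value on plate 2 rested on the cells described above. Otx2, a regulator of the primed state, had 0.52 and 0.47 and reached 87.8 and 45.7 TPM. Dnmt3l had 0.72 and 0.44. Its lowest correlation over cells was with Fgf15, a growth factor of the epiblast (-0.36 and -0.28).

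Replication-dependent histones were the largest uneven family. They are transcribed in S phase and end without a poly(A) tail, so priming on poly(A) captures them in part. Of 44 tested, 20 were variable (45.5%, beside 2.61% of all tested genes), with a median excess SD of 0.52 and 0.50. Hist1h2an was detected in 60.0% and 47.3% of cells and reached 343 and 330 TPM, with excess SDs of 1.92 and 1.85. The genes are near copies, and reads may be split between them. A set of 9 H2A genes (Hist1h2ab, Hist1h2ae, Hist1h2af, Hist1h2ag, Hist1h2ak, Hist1h2an, Hist1h2ap, Hist2h2aa2 and Hist2h2ac) was linked by 20 pairs, with a mean rho of 0.45 and 0.50.

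The mean log2 level of the histone list followed that of the G1/S list over cells (rho 0.46 and 0.42, or 0.22 and 0.22 after each cell was centred). Single H2A genes differed in this: the rho with the G1/S score was 0.39 and 0.49 for Hist1h2ae, 0.39 and 0.43 for Hist1h2ap, 0.31 and 0.18 for Hist1h2an and 0.16 and 0.13 for Hist1h2af. With the G2/M score these genes ran from -0.21 to -0.01. The upstream regions of Hist1h2ae and Hist1h2ag are shown because both belong to the H2A set. They are from RefSeq on build GRCm38.p6, from 250 bases before to 50 after the gene start, 5′ to 3′, and the capitals mark the CCAAT box on either strand (letters CCAAT). Hist1h2ae (RefSeq symbol H2ac8) lies at chr13:23571171-23571470, minus strand, with 2 matches, and Hist1h2ag (H2ac11) at chr13:22042900-22043199, minus strand, with 5. A match is only these letters in this window: 38.02% of 27025 promoters hold one.
Hist1h2ae: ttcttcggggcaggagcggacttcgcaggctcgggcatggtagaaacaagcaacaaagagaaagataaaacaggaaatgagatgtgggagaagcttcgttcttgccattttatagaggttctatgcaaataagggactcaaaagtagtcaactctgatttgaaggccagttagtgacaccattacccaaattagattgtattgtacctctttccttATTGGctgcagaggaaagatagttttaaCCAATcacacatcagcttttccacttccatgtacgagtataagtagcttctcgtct
Hist1h2ag: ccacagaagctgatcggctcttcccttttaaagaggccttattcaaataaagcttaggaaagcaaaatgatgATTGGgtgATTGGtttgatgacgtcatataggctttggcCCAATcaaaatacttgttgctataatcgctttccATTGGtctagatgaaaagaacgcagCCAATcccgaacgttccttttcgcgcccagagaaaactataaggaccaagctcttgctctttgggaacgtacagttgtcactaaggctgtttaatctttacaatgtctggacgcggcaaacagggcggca

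Cell cycle genes were coordinated without being uneven for their level. None of 25 G1/S genes and none of 26 G2/M genes passed the limit, and their median excess SDs were -0.00 and -0.01, and -0.06 and -0.03. Yet the mean pairwise rho was 0.29 and 0.22 within the G2/M list and 0.20 and 0.16 within the G1/S list, beside 0.03 and 0.03 over all pairs of tested genes. Ccnb1, the mitotic cyclin, had medians of 213 and 176 TPM and highest levels of 683 and 554 TPM. Its closest partners were Kpna2, an importin (0.67 and 0.74), Cdk1, its kinase (0.65 and 0.60), and Top2a (0.58 and 0.70). Among the genes that fell as Ccnb1 rose were Lifr (-0.59 and -0.42) and 1810064F22Rik (-0.59 and -0.42), and the correlation of Lifr shrank to -0.27 and -0.15 after centring. The G1/S and G2/M scores had a rho of 0.29 and 0.24, but of -0.20 and -0.27 after centring, so its sign rests on how cells were scaled.

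Metallothioneins, small proteins that bind zinc and copper and are induced through the factor MTF1, were both abundant and uneven. Mt1 had medians of 1653 and 2001 TPM and reached 16998 TPM on plate 1 and 11331 TPM on plate 2, with excess SDs of 0.95 and 0.98. Mt2 had medians of 414 and 553 TPM and excess SDs of 0.71 and 0.72. The 2 genes followed each other closely (rho 0.82 and 0.83), while they are near copies whose reads may be split. Their upstream regions (RefSeq, GRCm38.p6, 250 bases before to 50 after the start, 5′ to 3′) are shown because the pair moved together most closely of the named protein-coding pairs. Capitals mark the core of the metal response element on either strand (letters TGCACNC or TGCGCNC). Mt1 lies at chr8:94178839-94179138, plus strand, with 3 matches, and Mt2 at chr8:94172368-94172667, plus strand, with 4, and 25.6% of 27025 promoters hold at least 1.
Mt1: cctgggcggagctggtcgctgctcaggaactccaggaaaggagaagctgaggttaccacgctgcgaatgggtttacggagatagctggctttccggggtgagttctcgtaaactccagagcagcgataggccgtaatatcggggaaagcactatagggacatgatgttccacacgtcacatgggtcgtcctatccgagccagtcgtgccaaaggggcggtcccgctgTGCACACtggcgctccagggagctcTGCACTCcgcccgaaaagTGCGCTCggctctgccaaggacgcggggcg
Mt2: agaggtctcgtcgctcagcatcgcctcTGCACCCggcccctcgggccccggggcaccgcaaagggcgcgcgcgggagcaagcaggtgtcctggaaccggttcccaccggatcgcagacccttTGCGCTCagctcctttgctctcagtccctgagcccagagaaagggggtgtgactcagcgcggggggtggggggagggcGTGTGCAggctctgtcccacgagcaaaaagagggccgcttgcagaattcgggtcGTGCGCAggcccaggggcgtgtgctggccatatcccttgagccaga

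Gstp1 and Gstp2, glutathione transferases, formed a further pair of near copies (rho 0.59 and 0.69). Gstp2 was detected in 67.8% and 73.1% of cells, with medians of 16.7 and 18.6 TPM and highest levels of 395 and 267 TPM. Its excess SDs were 1.74 and 1.604, and those of Gstp1 1.30 and 0.93. The epidermal keratin genes Krt17 and Krt42 had a rho of 0.42 and 0.41 with each other and belonged to a set apart from Krt8 and Krt18. Fabp3, a fatty acid binding protein, and Pim2, a kinase downstream of Stat3, moved in opposite directions (-0.42 and -0.49).

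Among the other lists, few members stood out, beside a background of 2.61% over all tested genes. Of 6 fibroblast genes tested, S100a6 and Lgals1 were variable, and the fibroblast-defining collagens were listed at 0. Of 16 imprinted genes, H19 (0.63 and 0.81) and Phlda2 (0.70 and 0.92) passed. Of 21 glycolysis genes, Ldhb, a lactate dehydrogenase subunit (0.63 and 0.68), and Eno3, an enolase (0.59 and 0.55), passed. Of 17 p53 targets, Perp, a membrane protein of junctions (0.82 and 0.75), passed. None passed of 16 ERK feedback and immediate early genes, 13 stress and dissociation genes, 11 germline genes, 6 Wnt targets, 5 neural genes or 3 primitive endoderm genes. None of 75 cytosolic ribosomal protein genes passed, and their median excess SD was -0.10 and -0.09, although they had the highest mean pairwise rho of any list (0.61 and 0.56).

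**Figure D3:**
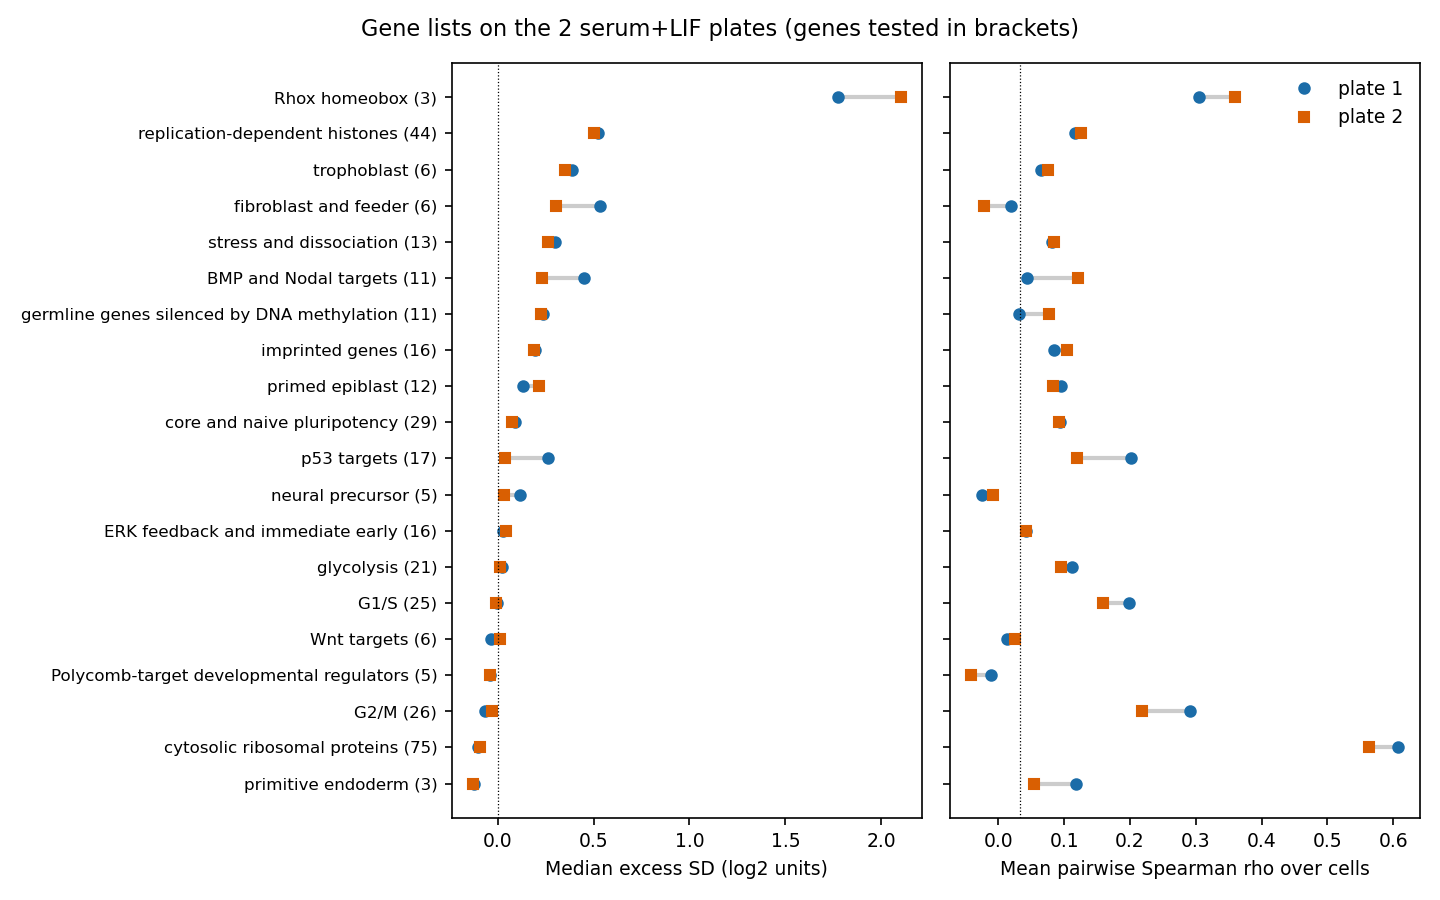
Median excess SD (left, log2 units) and mean pairwise Spearman rho over cells (right) of each gene list with at least 3 tested members, on serum plate 1 (circles) and plate 2 (squares), with dotted lines at 0 and at the mean over all pairs on plate 1 (0.03). The Rhox genes lead on the left, with the histones near 0.5 on both plates, and the ribosomal protein genes, with low spread for their level, lead on the right.

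Among the 35778 pairs of variable genes, 210 (0.587%) had a rho of 0.4 or more on both plates and 12 (0.0335%) had -0.4 or less. On single plates 369 and 466 pairs reached 0.4. Of the 210 pairs, 198 kept a rho of 0.4 after centring and 154 after the number of genes detected was partialled out. Centring shifts values of 0 along with the rest of a cell, and it also raised correlations. The mean rho of the germline list, for example, went from 0.03 and 0.08 to 0.20 and 0.22. Keeping 0.4 after centring is thus a weak check for genes with many values of 0. The linked genes formed 15 sets with 88 genes, and 180 variable genes joined none.

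The largest set held 29 genes linked by 130 pairs, among them Pbld1, Mtfmt, Slc13a4, Zw10, Zfp202 and the sterol genes Soat2 and Srebf2. Its mean rho was 0.37 and 0.41. Pbld1 ran from 280 through 2543 to 24337 TPM on plate 1 and from 424 through 9210 to 29555 TPM on plate 2, and Soat2, a cholesterol esterifying enzyme, had medians of 26.1 and 47.1 TPM. The set's mean level fell as the number of genes detected rose (rho -0.33 and -0.62), and 82 of its 130 pairs kept a rho of 0.4 after that number was partialled out. H3K4me3, a mark of active starts, differed among the named members in the serum ChIP-seq described below. As log2 relative to the median window it was -2.54 for Pbld1, -4.22 for Slc13a4 and -4.03 for Soat2. It was 2.54 for Mtfmt, 2.38 for Zw10, 1.78 for Srebf2 and 1.06 for Zfp202. Where the RNA read for these genes starts was not tested.

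The second set held 11 genes: Rhox6, Rhox9, Dppa3, Ifitm1, Fabp3, S100a6, Lgals1, Sdc4, Tfpi, Hmgn5 and Krtdap. Its mean rho was 0.32 and 0.33, or 0.25 and 0.29 after centring. Of its 11 pairs, 5 kept a rho of 0.4 after centring and 8 after the number of genes detected was partialled out. Its mean level rose with that number (0.31 and 0.49). It ran against the first set (-0.36 and -0.56, or -0.29 and -0.37 with that number partialled out). Of the 12 negative pairs, 8 joined a gene of the first set to one of the second, such as Pbld1 and S100a6 (-0.45 and -0.51) and Pbld1 and Sdc4 (-0.50 and -0.50).

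The third set was 9 names of zinc finger type (Rex2, Zfp534, Zfp600, Zfp640, Gm10324, Gm13138, Gm13242, Gm13251 and RP23-282C23.3), with a mean rho of 0.58 and 0.67. All 29 of its pairs were kept under both corrections. Several are near copies of each other, so shared reads can raise these values. A set of 8 included Spp1, which encodes osteopontin, the autophagy genes Calcoco2 and Gabarapl2, and Mylpf, a muscle myosin light chain (mean rho 0.37 and 0.40). Smaller sets were Bmp4 with Gm7325 (0.47 and 0.46), Gstm2 with Klhl13 (0.50 and 0.50) and Gsto1 with Perp (0.46 and 0.40), a pair that fell below 0.4 under both corrections.

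**Figure D4:**
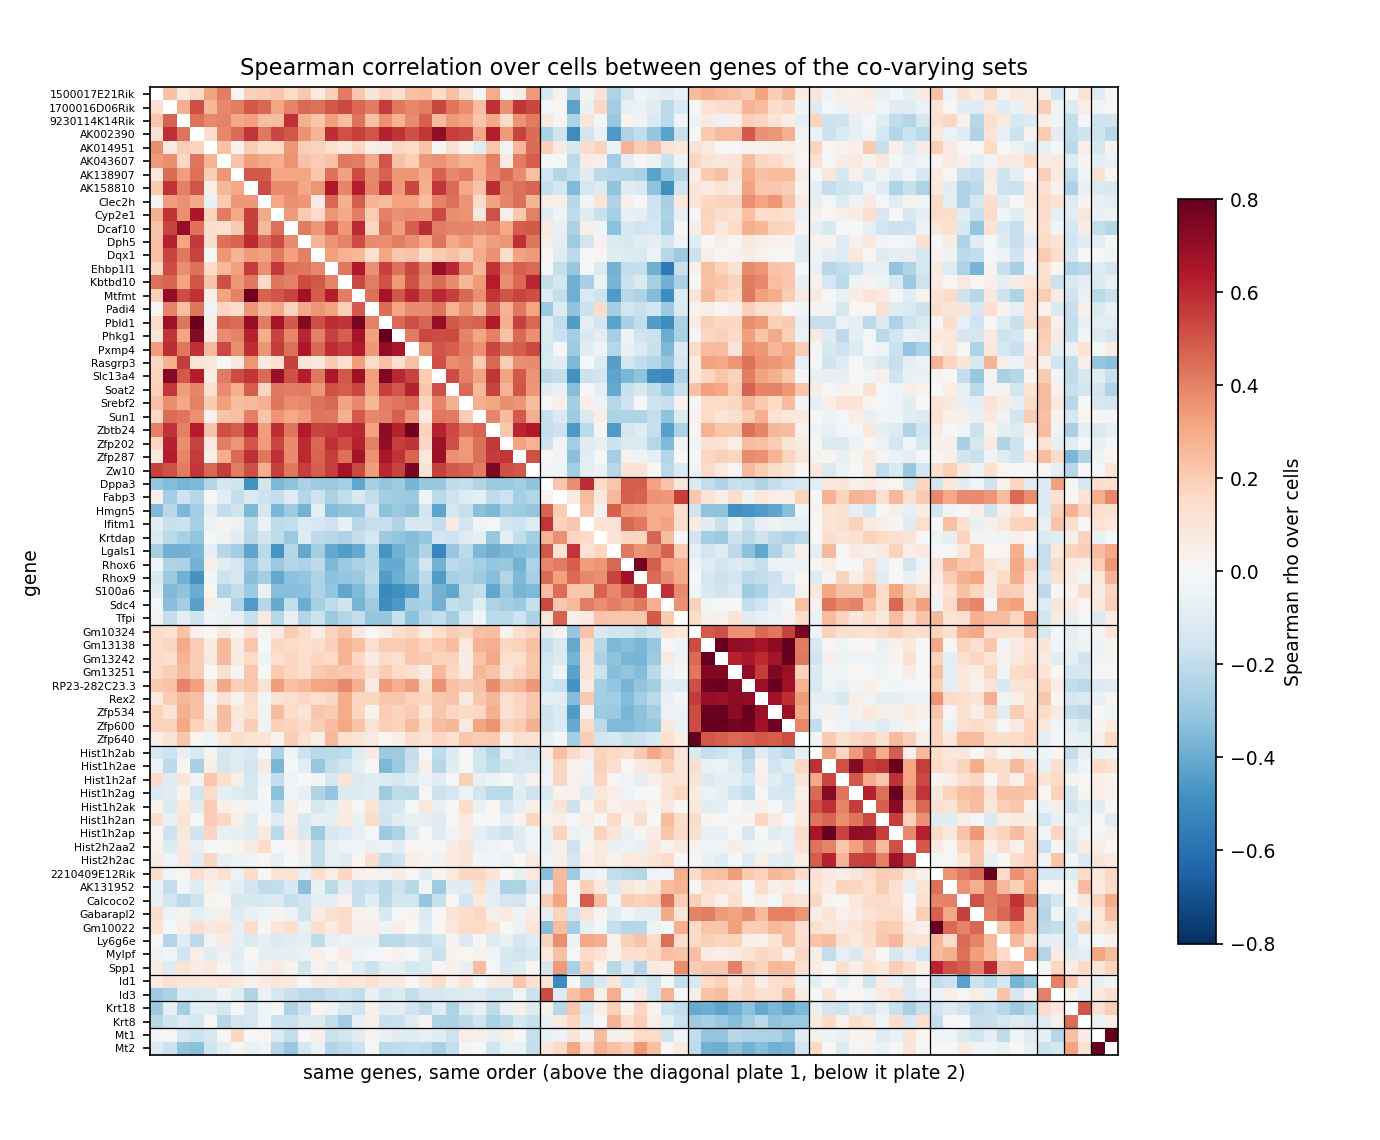
Spearman rho over cells between genes of the co-varying sets, in colour from -0.8 (blue) to 0.8 (red), above the diagonal for plate 1 and below it for plate 2, with black lines between sets. The blocks of the first 3 sets repeat across the diagonal, and the first and second sets are blue against each other.

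The excess SDs of serum cells were set against those in 2i over the 4 mESC plates, with limma on 1 value per gene and plate. Of 11944 genes, 379 (3.17%) were higher and 333 (2.79%) lower in serum at an adjusted p under 0.05. However, 597 of these 712 genes were listed at 0 in all serum cells, so that both serum plates had the same SD of 0, and 67 of the 712 could be tested on both serum plates, 27 higher and 40 lower. Without limma's trend no gene was called (3376 had an unadjusted p under 0.05), and none with a pseudocount of 10 TPM (3345). The 2i plate is a single plate, assumed to vary like the serum plates, and a p-value here reflects only how far the plates lie apart.

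Among the 67, the metallothioneins were more uneven in serum. Mt1 had excess SDs of 0.95 and 0.98 in serum against 0.20 in 2i, a difference of 0.76 (SE 0.027, limma adjusted p = 0.037), and Mt2 0.71 and 0.72 against 0.10, a difference of 0.61 (limma adjusted p = 0.043). Calcoco2 had a difference of 1.02 (limma adjusted p = 0.038). Against the knockout plate, also in serum+LIF, the difference was 0.26 for Mt1 and -0.01 for Mt2. Lower in serum than in 2i was Tpt1, a translationally controlled growth gene, at 0.07 and 0.01 in serum against 1.38 in 2i. So were the histone genes Hist1h4c (a difference of -1.40) and Hist4h4 (-1.04), and Ddit3, a stress transcription factor (-0.97).

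The most uneven genes of serum cells did not pass that test. Rhox6 had excess SDs of 1.95 and 2.14 in serum against 0.62 in 2i, a difference of 1.43 (SE 0.127, limma adjusted p = 0.092). The difference was 1.35 for Id1 (SE 0.233, limma adjusted p = 0.15), 1.45 for Gstp2 (SE 0.0897, limma adjusted p = 0.067) and 0.69 for Dppa3 (SE 0.039, limma adjusted p = 0.060). Of the histones, none of 48 was higher in serum and 5 were lower, and of 29 pluripotency genes none was called.

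Rhox6, Id1, Gstp2 and Dppa3 were named for their high excess SDs on these same serum plates. That choice favoured a higher value in serum, whichever genes were fitted. Calls for these genes depended on which genes were fitted together. In a fit limited to genes in at least 10% of the cells of every plate, added after the data were seen, 454 of 9869 genes (4.6%) were higher and 796 (8.07%) lower in serum than in 2i. There Rhox6 (limma adjusted p = 0.0001), Id1 (0.00062), Gstp2 (9.1e-05), Dppa3 (0.0028) and Nanog (a difference of 0.25, 0.033) were called, and Pou5f1, at 0.27, was not (limma adjusted p = 0.077). Of the BMP and Nodal list, 6 of 10 genes were higher and 1 lower in serum, and of the pluripotency list 8 of 28 were higher and 1 lower. Of the histones, 2 of 41 were higher and 20 lower. Levels differed too: Gstp2 had medians of 16.7 and 18.6 TPM in serum and 595 TPM in 2i, and Rhox6 1.85 and 4.66 TPM in serum and 0 TPM in 2i.

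**Figure D5:**
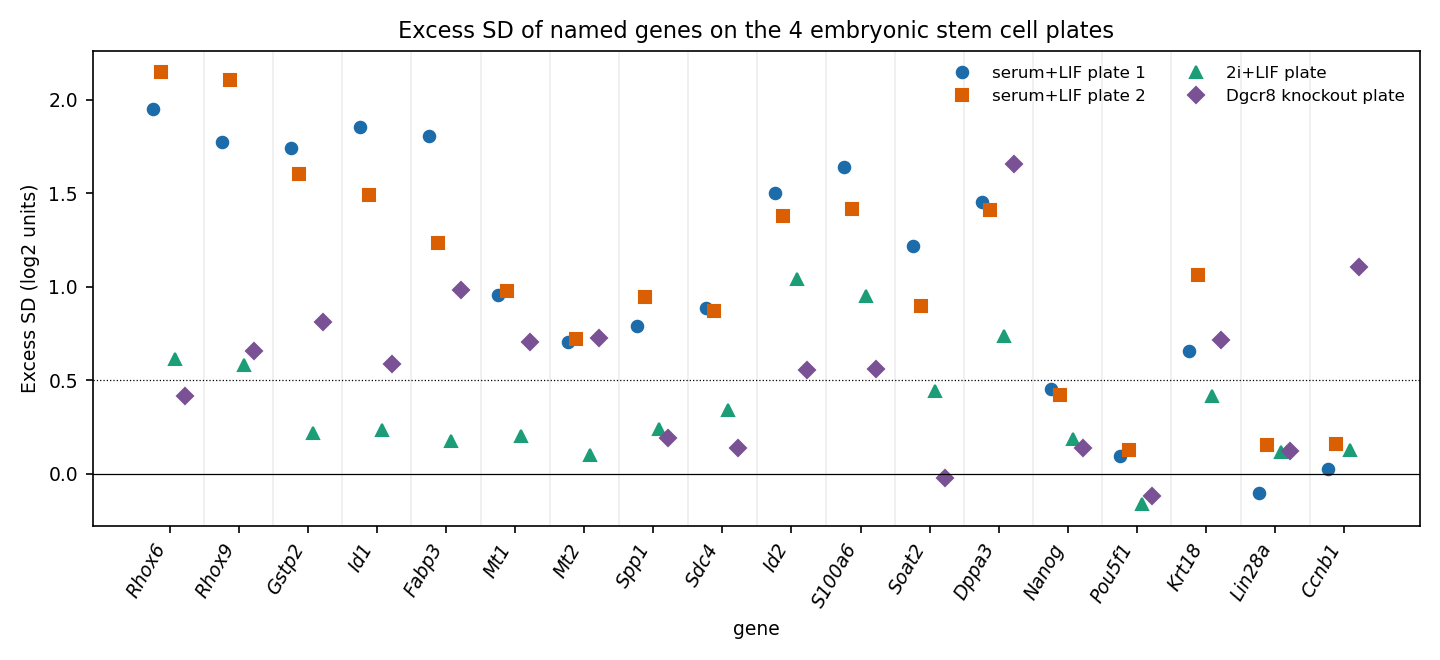
Excess SD (log2 units) of 18 named genes, from the fit limited to genes seen on every plate, on serum+LIF plates 1 and 2, the 2i+LIF plate and the Dgcr8 knockout plate, from left to right within each gene, with a dotted line at 0.5. Rhox6, Rhox9, Gstp2 and Id1 lie above 1.4 on both serum plates and below 1 on the other plates, while Ccnb1 is highest on the knockout plate.

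Against the Dgcr8 knockout plate, 517 genes (4.33%) were higher and 428 (3.58%) lower in serum wild-type cells by limma. Of these 945 genes, 672 were listed at 0 in all serum cells, and 203 could be tested on both serum plates, 89 higher and 114 lower. Without the trend no gene was called (4293 had an unadjusted p under 0.05). Rpph1, the RNA of ribonuclease P, differed by 1.31 (SE 0.0664, limma adjusted p = 0.046), and Tpt1 by -1.50 (SE 0.0499, limma adjusted p = 0.031). Rhox6 differed by 1.63 (SE 0.127, limma adjusted p = 0.066) and Ccnb1 by -1.01 (SE 0.0873, limma adjusted p = 0.071), which missed the threshold. Dppa3 was also uneven in the knockout, with excess SDs of 1.45 and 1.41 in serum wild-type cells against 1.66 (a difference of -0.23, limma adjusted p = 0.11).

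In the fit limited to genes seen on every plate, 1451 genes (14.7%) were higher and 1489 (15.1%) lower in serum wild-type cells than in the knockout. There Rhox6, Id1 (a difference of 1.09), S100a6 (0.97) and Id2 (0.89) were called, each with a limma adjusted p of 0.0009 or less. Of 26 G2/M genes 14 were lower in serum wild-type cells and none higher, while in the fit over all 11944 genes 2 of them were lower. Ccnb1 had excess SDs of 0.03 and 0.16 in serum wild-type cells against 1.10 in the knockout, and was called in this fit (limma adjusted p = 0.00041). The knockout cells had the wider range of genes detected, from 6202 to 9756, and its part in this difference was not tested. Both comparisons use the same 2 serum plates. Rhox6, Id1, S100a6 and Id2 were named for their high excess SDs on those plates, which favoured a higher value in serum.

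Many genes that were uneven in serum were also uneven on the other plates. Of the 268 variable genes, 148 (55.2%) had an excess SD of 0.5 or more on the 2i plate and 145 (54.1%) on the knockout plate, beside 8.36% and 9.96% of all genes fitted.

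ChIP-seq of serum+LIF cells, 1 library a mark, gave counts in a window of 1000 bases for each gene, whose place relative to the gene is not stated. Each count was divided by the input count, and that ratio by its median over all windows for the mark. H3K27me3 is the mark of Polycomb repression. The share of windows at 4 times its median ratio or more was 18.1% (1314 of 7259) for genes listed at 0 in all serum cells. It was 12.3% (60 of 487) for genes in under 10% of cells, 3.26% (189 of 5805) for those in 10% to 90% and 0.816% (28 of 3430) for those in over 90% of cells on both plates. Among the variable genes it was 5.39% (11 of 204), beside 2.31% (222 of 9631) of all tested genes. With detection set at 5 TPM, the class under 10% of cells had 5.97%.

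Several uneven genes lay above the median window for both H3K27me3 and H3K4me3, a mark of active starts. They are examples, and the share of variable genes with both marks was not counted. Id3 (chr4:135699236-135700236, mm9, as deposited) had 126 H3K27me3 reads, 1533 H3K4me3 reads and 22 input reads. That is 2.19 and 2.33 as the log2 of the ratio to input over the median window's ratio. A value thus compares a window with the median window of that mark, and not with input. Car4 (chr11:84770755-84771755) had 2.86 and 1.26, and Fabp3 (chr4:129985521-129986521) 2.02 and 0.87 on that scale. Id1 (chr2:152561509-152562509) had 1.04 and 1.55, so its H3K27me3 lay below the limit of 4 times used above. Rhox6 had 2.94 and 1.88, but on 2 input reads. The medians over all tested genes were -0.70 for H3K27me3 and 1.88 for H3K4me3. Car4, Fabp3 and Id1 thus lay below a typical tested gene for H3K4me3. In contrast, Nanog had -0.78 for H3K27me3 and 0.35 for H3K4me3, with 405 H3K4me3 reads and 23 input reads. Hist1h2ag had -1.13 for H3K27me3 and 5.81 for RNA polymerase II (1653 reads). Without replicate libraries, these differences have no check of their error.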

How the data were processed

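Cells were taken by their labels, but these cells were made the subject, and the gene lists chosen, with earlier results of these data known. The deposited single-cell table holds the natural log of TPM + 1 for each gene and cell, and the authors aligned reads with Bowtie and quantified them with RSEM on mm9, per the submitters' processing notes. Versions are left unstated there. The ChIP-seq table holds raw counts of reads, as deposited, for each gene's window of 1000 bases on mm9. Values were turned back to TPM by exp(value) - 1, and of 22443 names 51 in date form were dropped, with names of identical values counted once. A gene was called detected at TPM 1 or more. TPM keeps no read depth, so no interval from depth can be given.

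Excess SD is the SD over cells of log2(TPM + 1) less a running median by mean level, and a gene was tested where detected in at least 10% of cells on each serum plate. Correlations over cells are Spearman values with no p. The excess SDs of the 4 plates were compared with limma (3.58.1, R 4.3.3, trend on mean level, Benjamini-Hochberg adjustment) over genes with a mean of at least 10% of cells detected. It had 1 residual degree of freedom between the serum plates. Ratios of window counts to input were taken first, and each was then divided by the median ratio over all windows for that mark. Python 3.11.15 with numpy 2.4.6, pandas 2.3.3 and scipy 1.17.1 was used, and the steps were tested on simulated data.

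Named genes were the 20 with the highest excess SD, the leading members of each list, the closest partners of 9 chosen genes and the largest limma differences, and other genes named were chosen after their values were seen. Of the variable genes 57.8% matched a RefSeq promoter, under 80%, so a check of motifs over the set is void. Bulk and neural precursor tables were not used here.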

Additional observations from a re-analysis of the deposited data

How the results depend on the processing

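With a pseudocount of 10 TPM, 72 genes were variable on both plates, 2 lists had a high median excess SD (7 otherwise), and limma called 0 genes against 2i. With detection at 5 TPM, 23 genes were on or off (13 otherwise) and the share of rarely detected genes with H3K27me3 was 5.971%. At 2 times the median ratio to input that share was 31.42%. At 50 TPM, 0 cells carried markers of another lineage, and by construction 0 without the trophoblast-marker cells. Centring gave 10 co-varying lists (6 otherwise), 1109 positive and 5 negative pairs, and a rho of -0.2351 between cell cycle scores, reversed from 0.2634. The partial correlation given genes detected left 3 negative pairs and a rho of 0.1167. A limit of 0.3 gave 537 and 97 pairs, and Pearson correlation 29 negative ones. With 1 plate left out of every step, so that genes were filtered and chosen on the other plate alone (unlike the counts per plate above, which use genes tested or variable on both), there were 380 to 403 variable genes, 23 to 27 on/off genes, 1 to 2 marker cells, 846 to 906 positive and 160 to 208 negative pairs, and an excess SD of Lin28a of -0.1006 to 0.1562.

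Calls by limma against 2i were 1157 for genes in at least 50% of cells, 2252 with no filter, 1403 on the SD as it is (98 higher and 1305 lower in serum), 0 without the trend and 1250 in the fit limited to genes seen on every plate. Against the knockout they were 2777, 3268, 2948 (89 higher and 2859 lower), 0 and 2940. Causes of these shifts were not tested. Of the differences for named genes, 298 kept their side of the threshold and 89 lost it. Leaving out the 4 cells with trophoblast markers, chosen after seeing the data, gave 244 variable genes and 184 positive pairs. No paired analysis was possible because the cells' replicate numbers follow accession order and no label pairs the plates. Each comparison rests on 4 plates, 1 each of 2i and knockout cells.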
